A study of Mus musculus with 6 samples.

Results

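Axonemal dynein and motile cilia genes were read in whole mouse testis from 78 protein-coding genes, out of 21884 protein-coding genes and 55850 genes of all kinds in the table. They were chosen by name alone: every protein-coding gene whose symbol begins with Dnah, Dnai, Dnaaf, Dnal, Cfap, Rsph or Drc followed by a number (or, for Dnal, by an i). The series compared testis RNA from 3 samples labelled WT with 3 samples labelled CKO, written cKO here, with the treatment given as "no" for all 6. By its title, the series removed the splicing factor SRSF2 from Sertoli cells, which support germ cells inside the seminiferous tubule. Neither the age of the mice nor the Cre driver or targeted allele is given in the sources used here. Whether each sample is a different animal is not said in the labels; p-values therefore reflect only how far these samples vary, and that variation may be technical.

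The axoneme is the ring of microtubule doublets around a central pair that beats in motile cilia and in the sperm tail. Outer and inner dynein arms, built from heavy, intermediate and light chains, slide neighbouring doublets; radial spokes and the nexin-dynein regulatory complex control that sliding, and cytoplasmic assembly factors fold the arms before they are carried into the cilium. In the testis the sperm tail is built in spermatids, many of its genes are first transcribed in spermatocytes, and the efferent ducts next to the testis carry multiciliated cells of their own.

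Regulatory factor X (RFX) proteins bind the X-box of cilia genes, an inverted repeat whose arms read GTTGCC in its best-known form. RefSeq promoters on GRCm38.p6, 250 bases before to 50 bases after each start, were found for 64 of the 78 genes (69 promoters). On either strand, GTTGCC was present in 36.2% of these promoters and in 12.5% of all 32851 mouse promoters of the same length. The longer GTTGCCA was present in 21.7% against 4.38%. A full pair of arms, written GTNNCC, then 0 to 3 bases, then GGNNAC, was present in 15.9% against 3.86%. These patterns overlap one another, so they are not independent counts. The cyclic AMP response element TGACGTCA, which the germ cell factor CREM can bind, was present in 2.90% against 1.79%. The axonemal promoters had a median GC content of 56.3% and all promoters 52.7%; among other promoters with at least that axonemal median the shares were 12.7% for GTTGCC, 3.69% for GTTGCCA, 5.09% for the pair and 3.08% for TGACGTCA. A match is a description of the letters in the window and was not tested as a bound site.

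GTTGCCA, or its reverse complement TGGCAAC, was present for 5 of the genes with a mean of at least 1 FPKM (reads scaled to gene length and library total), and these matches are shown, with 1 full pair from Cfap20dc as an example, so that the X-box letters of genes in the test below can be read. Each is written 5′ to 3′ in the direction of its gene with the match in capitals.
Cfap300: caaagacTGGCAACctccttc
Cfap20: agtccctTGGCAACcaagttc
Drc1: tttccctTGGCAACggctt
Dnaaf2: gttactaTGGCAACaaa
Cfap298: tttgactGTTGCCCCTGGCAACagccact
Cfap20dc: cccctcaGTTGCCTGGGCAACggctcag
The Cfap300 stretch lies at chr9:8042985-8043005 on the minus strand, with the match ending 117 bases before the RefSeq start; the distances that follow are counted in the same way. That of Cfap20 lies at chr8:95434951-95434971 (minus strand, 89 bases before the start) and that of Drc1 at chr5:30281374-30281392 (plus strand, 6 bases before it). In the Dnaaf2 stretch at chr12:69198430-69198446 (minus strand) the match ends 4 bases before the start. In Cfap298 the capitals mark the full pair, which also holds TGGCAAC, at chr16:90934897-90934925 on the minus strand; this is 55 bases before the RefSeq start but inside the gene as GENCODE M21 draws it. The Cfap20dc pair lies at chr14:8666372-8666399 on the minus strand, 89 bases before its start.

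Depth was even, at 16070287 to 17281330 reads per library recovered from the FPKM values, and the 78 genes together took 0.0622% to 0.0769% of them. Srsf2, the targeted gene, was at 127, 96.7 and 102 FPKM in WT and 74.0, 87.3 and 87.3 FPKM in cKO libraries, which did not overlap (log2 difference -0.38, SE 0.15, limma adjusted p = 0.384). The share of reads on 18S ribosomal RNA was 1.58% to 2.09% in WT and 0.727% to 0.835% in cKO libraries, and that on mitochondrial genes 1.66% to 1.98% in WT and 2.39% to 2.97% in cKO libraries. Of 24 Sertoli cell markers, all at 1 FPKM or more, 21 had a log2 difference below 0 and 3 above it (median -0.32); 10 had cKO values all below WT values (9.92% of all genes tested did), and none passed the adjusted threshold (limma, lowest adjusted p = 0.306; 10 lower at an unadjusted p under 0.05, beside 7.68% of all genes). The part of any of these shifts in the results below was not tested, and in bulk tissue fewer cells of a type and less RNA per cell cannot be told apart.

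Most axonemal genes were at low levels. Of the 78, 24 (30.8%) had a mean of at least 1 FPKM over the 6 libraries, against 56.5% of all protein-coding genes, and 54 lay below it. The median of the means was 0.480 FPKM, against 2.06 FPKM over all protein-coding genes. A mean of at least 0.1 FPKM was reached by 66 genes, 0.5 FPKM by 39 and 5 FPKM by 13. Every gene had at least 1 read, with Dnaaf6, an assembly factor, lowest at 1 read in 1 library. Dnah1 (1.15 FPKM) and Cfap43 (1.15 FPKM) were just above 1 FPKM, and Drc3 (0.985 FPKM) and Cfap57 (0.921 FPKM) just below.

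**Figure D1:**
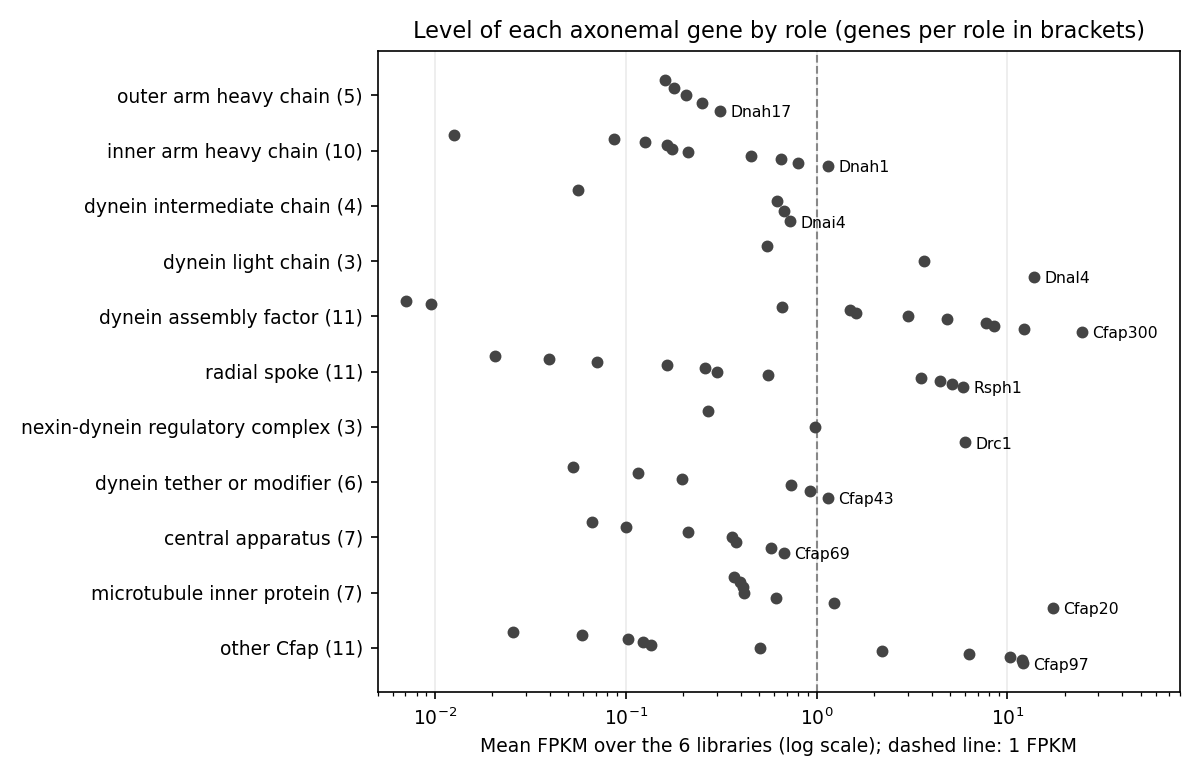
Mean FPKM over the 6 libraries (x axis, log scale) of each of the 78 axonemal and cilia genes, 1 point per gene, in rows by role with the highest gene of each row named; the dashed line is 1 FPKM. Assembly factors reach 24.6 FPKM (Cfap300), whereas all 5 outer arm heavy chains and all 7 central apparatus genes lie to the left of the line.

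The heavy chains, the motor subunits of the arms, were low per length. All 5 outer arm heavy chains (Dnah5, Dnah8, Dnah9, Dnah11 and Dnah17) lay between 0.160 and 0.312 FPKM. These are very long transcripts (14458 to 26820 bases in the table), so each was still covered by 251 to 678 reads over the 6 libraries. Dnah17, an outer arm chain of the sperm tail, was highest, at 0.207, 0.429 and 0.285 FPKM in WT and 0.389, 0.338 and 0.224 FPKM in cKO libraries, with overlapping groups. Of 10 inner arm heavy chains, Dnah1 alone reached 1 FPKM, with 1.21, 1.28 and 1.07 FPKM in WT and 1.28, 0.992 and 1.06 FPKM in cKO libraries (1495 reads in all). Dnah2, another inner arm chain, followed with a mean of 0.797 FPKM. Dnah3 was lowest at 0.0126 FPKM, 18 reads in all. Dnah7a, Dnah7b and Dnah7c are near-identical copies that share 38.6%, 30.1% and 46.8% of their 50-base stretches with other genes, mainly with each other, so their separate values (0.0865, 0.651 and 0.175 FPKM) are uncertain.

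The smaller dynein subunits differed in level. The 4 intermediate chains, which hold the heavy chains together at the base of the arm, all lay below 1 FPKM, from 0.0562 (Dnai3) to 0.723 FPKM (Dnai4, of an inner arm). Among light chains, Dnal4 was at 16.0, 14.1 and 14.9 FPKM in WT and 16.6, 11.7 and 9.30 FPKM in cKO libraries. Its cKO libraries spanned more than the WT ones, and the groups overlapped (log2 difference -0.28, SE 0.19, limma adjusted p = 0.554). It was -0.10 without cKO replicate 3, -0.48 without cKO replicate 1, and -0.08 once each library's trends on gene length and GC content were removed. Dnal1, a light chain that binds an outer arm heavy chain, had a mean of 3.64 FPKM and the inner arm light chain Dnali1 0.551 FPKM.

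Of the 11 assembly factors, 8 (72.7%) had a mean of at least 1 FPKM, the highest share of any role. Cfap300 (chr9:8021672-8042823, minus strand), a cytoplasmic factor needed for arm assembly, was the highest of all 78 genes, at 30.1, 19.1 and 14.3 FPKM in WT and 27.1, 34.8 and 22.1 FPKM in cKO libraries. WT replicate 1 lay above cKO replicates 1 and 3, and the groups overlapped. Its difference on the log2 scale was 0.43 (SE 0.27, limma adjusted p = 0.525), and it was 0.19 without WT replicate 3 and 0.70 without WT replicate 1. Dnaaf10, which works with the R2TP chaperone complex, had a mean of 12.3 FPKM and shares 19.8% of its exon bases with other genes. Dnaaf5 had a mean of 8.48 FPKM, Dnaaf9 7.76, Dnaaf3 4.84, Dnaaf2 1.6 and Dnaaf1 1.49 FPKM. Dnaaf2 shares 71.4% and Dnaaf1 20.7% of exon bases with overlapping genes, so both levels are uncertain. Dnaaf4 (2 reads) and Dnaaf6 (1 read) were near 0, and Dnaaf4 shares 96.6% of its exon bases. Dnaaf6b, a separate gene of like name on the X chromosome, had a mean of 0.659 FPKM on 100 reads.

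Radial spoke genes split by level, with 4 of 11 at 1 FPKM or more. Rsph1, a spoke head protein, was at 8.43, 4.69 and 4.92 FPKM in WT and 7.51, 5.62 and 4.06 FPKM in cKO libraries. Rsph9, also of the spoke head, had a mean of 3.51 FPKM, whereas its head partner Rsph4a had 0.0706 FPKM on 26 reads and the sperm tail form Rsph6a 0.0206 FPKM on 5 reads. Of the nexin-dynein regulatory complex, the scaffold subunit Drc1 had a mean of 6.01 FPKM, Drc3 0.985 FPKM and Drc7 0.270 FPKM. Drc1 was at 7.15, 5.08 and 4.91 FPKM in WT and 5.79, 7.57 and 5.55 FPKM in cKO libraries, which overlapped.

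The 7 central apparatus genes all lay below 1 FPKM, from 0.0665 (Cfap54) to 0.671 FPKM (Cfap69). Of 6 genes that tether or modify dynein arms, Cfap43 alone passed, at 1.34, 1.05 and 0.669 FPKM in WT and 1.22, 1.62 and 0.972 FPKM in cKO libraries. Of 7 microtubule inner proteins, which line the inside of the doublets, Cfap20 was at 19.6, 16.4 and 17.1 FPKM in WT and 16.1, 17.3 and 17.2 FPKM in cKO libraries, the narrowest spread of the 78 genes (highest over lowest 1.22). Cfap126, also called Flattop, had a mean of 1.24 FPKM and ranged from 0.380 to 2.59 FPKM on 11 to 73 reads per library. The other 5 lay between 0.370 and 0.610 FPKM.

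The remaining 11 Cfap genes include several whose products act outside the beating apparatus. Cfap97 and Cfap418 had means of 12 FPKM each, Cfap36 10.3, Cfap20dc 6.28 and Cfap410, a basal body protein, 2.20 FPKM. The other 6 lay between 0.0256 and 0.505 FPKM.

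The comparison of cKO with WT testis asks whether these genes differ when SRSF2 is lost in Sertoli cells. No axonemal gene passed the adjusted threshold of 0.05 among the 24 tested (limma on log2(FPKM + 1), 14238 genes, lowest adjusted p = 0.360), where 0.014% of all genes tested passed, 0.00702% in each direction. At an unadjusted p under 0.05 there were 4 of 24 (16.7%), 3 higher and 1 lower in cKO, against 12.3% of all genes tested (4.65% higher and 7.68% lower). The same 4 genes were the only tested ones whose groups did not overlap, again 16.7%, against 18.6% of all genes tested (8.69% higher and 9.92% lower), a share near the background. Differences were positive for 12 and negative for 12 genes, with a median of -0.01 against 0.00 over all genes tested, and they ran from -0.60 to 0.67. A difference this test did not call is not shown to be absent: the 95% interval of Cfap300, for instance, ran from -0.19 to 1.04.

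**Figure D2:**
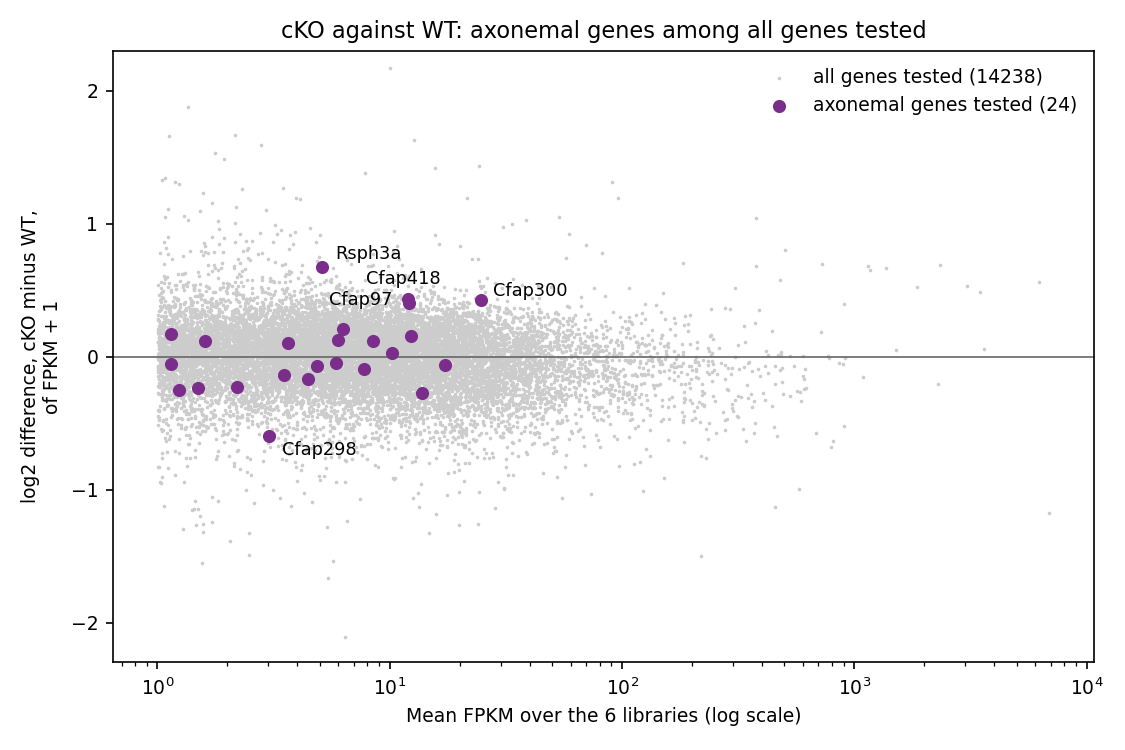
Log2 difference of FPKM + 1, cKO minus WT (y axis), against mean FPKM over the 6 libraries (x axis, log scale), for all 14238 genes tested (grey) and the 24 axonemal and cilia genes among them (purple). The axonemal genes lie within the cloud of all genes, 12 above and 12 below 0, and the 5 with the lowest unadjusted p are named.

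Rsph3a, a radial spoke stalk protein (chr17:7945614-7979824, plus strand), had the largest positive difference. It was at 3.75, 3.66 and 3.70 FPKM in WT and 6.74, 5.31 and 7.60 FPKM in cKO libraries, that is 3.70 ± 0.0493 and 6.55 ± 1.16 FPKM (SD, n = 3 each). Every cKO library lay above every WT library. The log2 difference was 0.67 (SE 0.14, unadjusted p = 0.00125 and adjusted p = 0.360 in limma). Rsph3a shares 58.1% of its 50-base stretches with other genes, among them its copy Rsph3b (chr17:6904413-6948682, minus strand, 69.2%), and how the authors' counting divided such reads is not stated, so both values are uncertain. Rsph3b was at 5.27, 3.77 and 5.30 FPKM in WT and 3.91, 4.59 and 3.82 FPKM in cKO libraries, with overlapping groups and a log2 difference of -0.17 (SE 0.15, limma adjusted p = 0.635). Their summed FPKM was 9.02, 7.43 and 9.0 in WT (8.48 ± 0.917, SD, n = 3) and 10.7, 9.90 and 11.4 in cKO libraries (10.7 ± 0.760, SD, n = 3), so the sum did not overlap either but stood closer. Rsph3a made up 41.6%, 49.2% and 41.1% of that sum in WT and 63.3%, 53.6% and 66.6% in cKO libraries.

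Cfap298, a cytoplasmic factor of arm assembly (chr16:90925809-90935114, minus strand), was the 1 tested gene with all cKO libraries lower. It was at 4.31, 3.97 and 3.24 FPKM in WT (3.84 ± 0.547, SD, n = 3) and 2.84, 2.0 and 1.81 FPKM in cKO libraries (2.22 ± 0.546, SD, n = 3), on 47 to 109 reads per library. The log2 difference was -0.60 (SE 0.16, unadjusted p = 0.00661 and adjusted p = 0.372 in limma). Of its exon bases, 53.6% overlap genes on the opposite strand, Gm49727 and 4930534H18Rik, and the use of strand in counting is not stated, so its reads cannot be told apart from theirs.

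Cfap97 (chr8:46151771-46195590, plus strand), the mouse counterpart of the fly gene hemingway, was at 9.60, 11.0 and 10.1 FPKM in WT and 13.3, 14.1 and 14.2 FPKM in cKO libraries. The cKO values lay close together and above all WT values, 13.9 ± 0.507 against 10.2 ± 0.683 FPKM (SD, n = 3 each). The log2 difference was 0.41 (SE 0.10, unadjusted p = 0.00464 and adjusted p = 0.361 in limma), and 0.21 once each library's trends on gene length and GC content were removed. Cfap418 (chr4:10874498-10899425, plus strand), whose human counterpart is known from photoreceptor disease, was at 10.8, 8.37 and 10.8 FPKM in WT and 12.1, 16.7 and 13.0 FPKM in cKO libraries. Its groups did not overlap, although cKO replicate 1 lay near the WT values (log2 difference 0.43, SE 0.16, limma adjusted p = 0.380). Cfap418 shares no exon bases with another gene and Cfap97 shares 2.56%. Of their 50-base stretches, 0.246% for Cfap418 and 8.8% for Cfap97 occur in other genes.

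**Figure D3:**
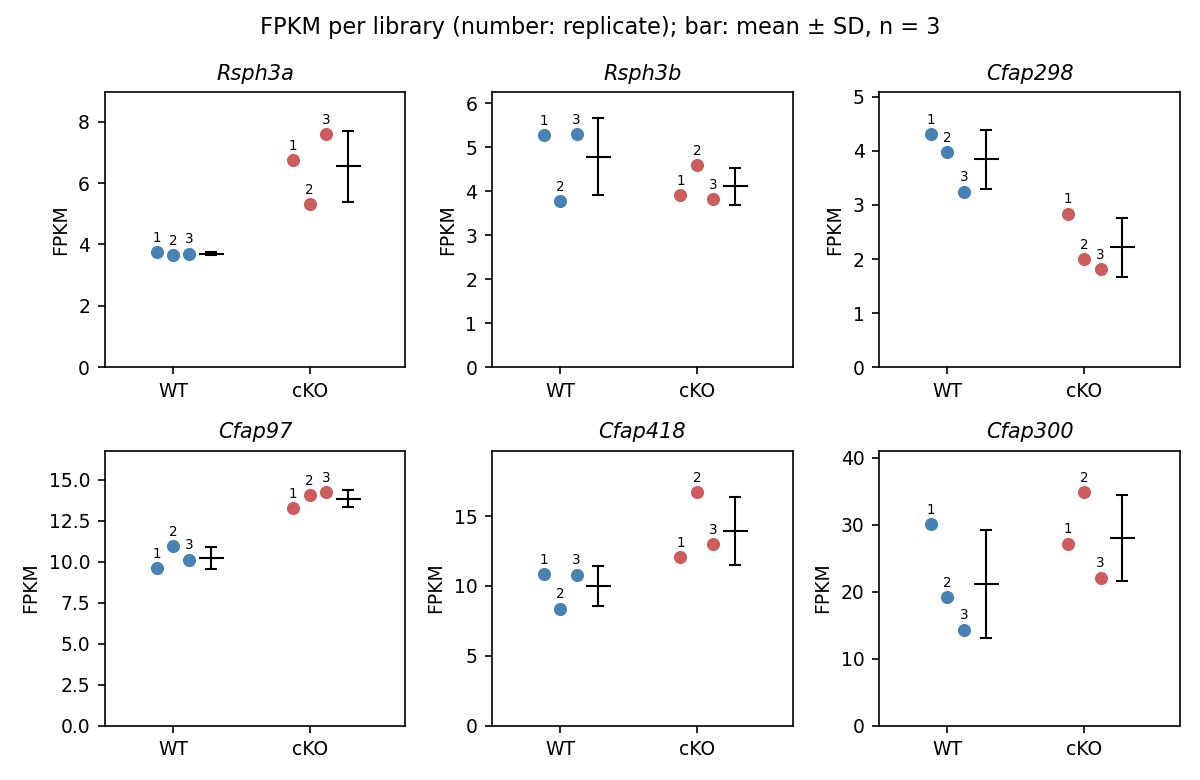
FPKM in each library (y axis from 0; points numbered by replicate) for 6 genes, with the mean ± SD of 3 libraries as bars, WT in blue and cKO in red. Rsph3a, Cfap97 and Cfap418 have all cKO points above the WT points and Cfap298 all below, whereas Rsph3b and Cfap300 overlap.

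Of the other genes among the 8 tested ones with the lowest unadjusted p, Cfap410 and Dnaaf1 had cKO means of 78.9% and 74.6% of WT, with overlapping groups. Cfap410 was at 2.87, 1.99 and 2.52 FPKM in WT and 1.78, 2.17 and 1.87 FPKM in cKO libraries. Dnaaf1 was at 2.23, 1.73 and 1.17 FPKM in WT and 1.27, 1.37 and 1.19 FPKM in cKO libraries, where the WT libraries spanned the whole cKO range. The log2 difference was -0.23 for each (limma adjusted p = 0.538 for Cfap410 and 0.598 for Dnaaf1). That of Cfap410 was -0.14 without WT replicate 1 and -0.12 with the length and GC trends removed. That of Dnaaf1 was -0.10 without WT replicate 1, -0.38 without WT replicate 3, -0.03 with those trends removed and -0.36 with a pseudocount of 0.1.

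The 54 genes below 1 FPKM were not in that test. Among them Dnah5 (0.109, 0.145 and 0.0981 FPKM in WT, 0.288, 0.149 and 0.168 in cKO libraries) and Cfap77 had all cKO values higher, and the intermediate chain Dnai2 (0.757, 0.769 and 0.698 FPKM in WT, 0.641, 0.609 and 0.255 in cKO libraries) all lower. These genes were singled out after their values were seen. They are 2 higher and 1 lower of 54, beside 4.45% higher and 4.12% lower of all protein-coding genes below 1 FPKM with a read, and some of the values stand very close. On recovered reads (limma voom, at least 10 reads in at least 3 libraries), 65 axonemal genes were tested and none passed (0.00562% of all 17780 genes did; lowest adjusted p = 0.371). At an unadjusted p under 0.05 there were again 4, beside 11.6% of all genes (5.95% higher and 5.62% lower in cKO). On this scale 40 differences were positive and 25 negative with a median of 0.15, whereas the 24 genes at 1 FPKM or more had a median of 0.01 and all protein-coding genes in that test 0.04.

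WT replicate 3 stood low for the axonemal genes. Of the 72 axonemal genes with a single lowest library, it was the lowest for 31 (43.1%). It was the lowest for 13.2% of all genes tested, none of which had a mean below 1 FPKM. Among the genes below 1 FPKM it was the lowest for 25 of 48 (52.1%), beside 27.5% of protein-coding genes below 1 FPKM. Among the 24 genes at 1 FPKM or more it was the lowest for 6 (25%), beside the 13.2% of all genes tested. WT replicate 2 was the lowest for 7 of them (29.2%, beside 16.8%). In WT replicate 2 the mean deviation of log2(FPKM + 1) was 0.0237 below 1 FPKM and -0.111 at or above it. In WT replicate 3 it was -0.103 and -0.0958. The summed reads of the 54 genes below 1 FPKM were 2144, 2326 and 1413 in WT and 2683, 2139 and 1781 in cKO libraries, so both groups held a low library and the groups overlapped. The summed FPKM of all 78 genes was 208, 171 and 162 in WT and 200, 206 and 177 in cKO libraries. Early meiosis markers moved with this library: it was the lowest for 16 of 28 (57.1%), and their summed FPKM was 141, 105 and 86.0 in WT and 124, 159 and 121 in cKO libraries. Of the 20 early meiosis markers tested, 16 had a positive and 4 a negative log2 difference (median 0.21). At an unadjusted p under 0.05, 3 were higher and 0 lower in cKO, beside 4.65% and 7.68% of all genes tested. None passed (limma, lowest adjusted p = 0.372). The part of WT replicate 3 in this lean was not tested. WT replicate 3 was also the lowest for 7 of 15 late spermatocyte markers (46.7%) and the highest for 7 of 10 Leydig cell markers (70%). Of all genes tested it was the lowest for 13.2% and the highest for 16.2%. Among 20 spermatogonia markers it was the lowest for 7 (35%) and cKO replicate 3 for 6 (30%). Their mean deviation was -0.174 in WT replicate 3 and -0.183 in cKO replicate 3, so there WT replicate 3 did not stand alone. The part of the cell makeup of this library in the axonemal values was not tested. Without WT replicate 3 no axonemal gene passed, and the median difference of the 24 tested was -0.000154. The 54 genes below 1 FPKM were not in that fit, and the test on recovered reads was not repeated without this library.

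**Figure D4:**
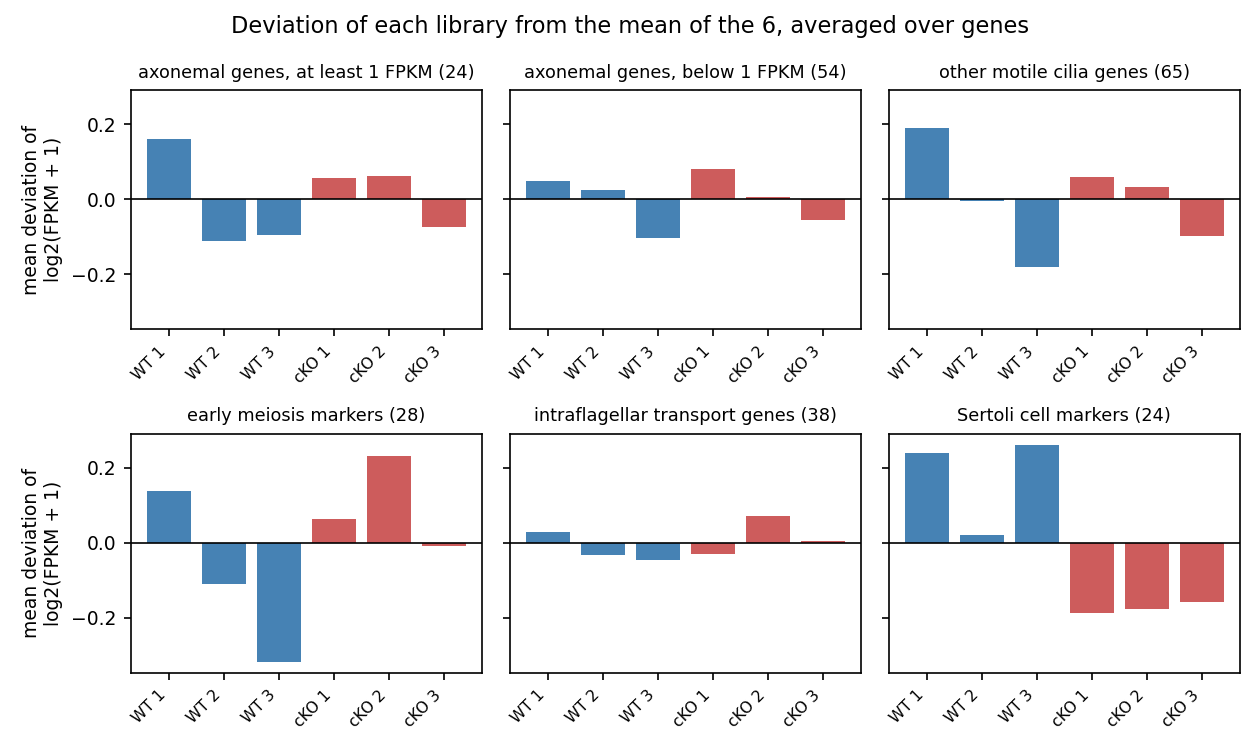
Mean deviation of log2(FPKM + 1) from the 6-library mean (y axis) in each library (x axis), averaged over the genes of 6 lists, WT in blue and cKO in red. WT replicate 3 is below 0 in the axonemal genes (both panels), the other motile cilia genes and the early meiosis markers, whereas the Sertoli cell markers separate WT above from cKO below 0.

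Cell types that could carry axonemal transcripts differed in the level of their markers. Of 14 markers of multiciliated epithelium 13 lay below 1 FPKM, Sntn and Tmem212 were at 0 in all libraries, and their summed level was 4.67 to 6.84 FPKM in WT and 3.43 to 6.92 FPKM in cKO libraries. All 15 efferent duct and epididymis markers lay below 1 FPKM, with Lcn5, Lcn9 and Defb2 at 0 throughout and sums of 2.54 to 3.47 FPKM in WT and 2.83 to 3.86 FPKM in cKO libraries. Of 20 spermatid genes 16 lay below 1 FPKM (median 0.129 FPKM). The lists of spermatocyte genes were higher than these lists. A mean of at least 1 FPKM was reached by 10 of 18 late spermatocyte genes (55.6%) and 20 of 28 early meiosis markers (71.4%). Their medians were 1.35 and 2.13 FPKM. Of all protein-coding genes 56.5% reached it, with a median of 2.06 FPKM. The late spermatocyte list holds Spag6l, Nme8 and Mybl1, which are also counted below among other motile cilia genes or regulators. It also holds Ldha, and the early meiosis list holds Smc3, neither of which is particular to germ cells.

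The list of regulators of motile cilia genes also held the early meiosis markers Stra8, Meiosin and Ythdc2 and the germ cell factor Crem. None of its 13 tested genes passed (limma, lowest adjusted p = 0.454, with 0 at an unadjusted p under 0.05). Foxj1, the forkhead factor of motile ciliogenesis, was at 0.360, 0.341 and 0.374 FPKM in WT and 0.313, 0.0865 and 0.117 FPKM in cKO libraries. Its cKO values were all lower, on 4 to 16 reads per library, and it was below the level for the test. Mcidas and Gmnc, which start the multiciliated programme, did not exceed 0.0510 FPKM in any library. Rfx2, which is needed for sperm tail genes in germ cells, had a mean of 1.12 FPKM and Rfx3 1.98 FPKM, both with overlapping groups. The meiotic factor Mybl1 was at 6.34, 6.63 and 6.83 FPKM in WT and 6.29, 7.32 and 7.99 FPKM in cKO libraries, which overlapped.

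Genes of the same structures that carry other names gave a like picture. Of 65 such genes that the table lists, 25 were tested and none passed (limma, lowest adjusted p = 0.382), with 11 positive and 14 negative differences and a median of -0.01; 1 higher and 1 lower had an unadjusted p under 0.05, beside 4.65% higher and 7.68% lower of all genes tested. These were Lrrc34 (log2 difference 0.50, SE 0.19) and Spef1, a central pair protein (-0.35, SE 0.14). On recovered reads 50 of the 65 were tested, with 36 positive and 14 negative differences. Their median was 0.12, beside 0.04 over all protein-coding genes in that test. None passed (limma voom, lowest adjusted p = 0.399), and 3 had an unadjusted p under 0.05, beside 11.6% of all genes. The highest levels were those of the testis tubulins Tuba3a and Tuba3b, with means of 43.2 and 41.1 FPKM. Tuba3a was at 67.7, 45 and 18.9 FPKM in WT and 52.6, 43.4 and 31.8 FPKM in cKO libraries, so that WT replicate 3 was again lowest. Alpha-tubulin genes are close copies of one another, so the division of reads between them is uncertain. Morn2 (8.63 FPKM) and Ropn1l (8.22 FPKM), a sperm tail protein, came next.

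The list of intraflagellar transport genes, which serve primary as well as motile cilia, also held Bbs genes, Ttc8, Arl13b and Tulp3. All 38 genes on it had a mean of at least 1 FPKM, from 1.65 (Bbs1) to 26.7 FPKM (Ift20), with a median of 5.28. None passed (limma, lowest adjusted p = 0.409; 0 at an unadjusted p under 0.05), and the median log2 difference was 0.03. The 16 cytoplasmic dynein and dynactin genes, the transport relatives of the axonemal motors, were also all above 1 FPKM, with a median level of 24.1 FPKM, and none passed (limma, lowest adjusted p = 0.426; 0 at an unadjusted p under 0.05).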

How the data were processed

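Whole-testis RNA of 3 WT and 3 cKO samples was sequenced. Per the labels' protocols, Trizol was used for extraction and a SMARTER mRNA-Seq kit for the libraries. The authors deposited 1 table of FPKM per gene (reads scaled to gene length and library total). The deposited table also gives a gene length, an other kind of value, in bases. GRCm38 and mm10 are the builds named in the submitters' processing notes; aligner, counter, annotation and strandedness were not given in the sources used here. Gene starts in the table differ from GRCm38 (1499 of 52081 shared identifiers have the same start), so printed positions are those of GENCODE M21 on GRCm38, by identifier, which matched all 78 genes.

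In each library, FPKM times length came in whole steps (100% of values, within 0.01), from which reads per gene were recovered. The totals behind these steps differed from the recovered reads. They were 1.59e+07 against 16070287 in WT replicate 1 and 1.76e+07 against 17281330 in cKO replicate 2. The 95% interval printed is limma's, from the spread between libraries. The main test, cKO minus WT on log2(FPKM + 1), used limma 3.58.1 in R 4.3.3 with its mean-variance trend over the 14238 genes averaging 1 FPKM or more, adjusted over all of them by Benjamini-Hochberg at a threshold of 0.05; this scale understates changes of low genes. limma voom was run on recovered reads. The members, roles and gene lists were chosen with earlier results of these data known. The genes named in full were the 12 with the highest mean, the 8 tested ones with the lowest unadjusted p, the highest of each role, those next to the filter, and set picks of the other lists; other genes are named by level or as stated. Exon overlaps and shared 50-base stretches were taken from GENCODE M21 transcripts. Promoters came from RefSeq on GRCm38.p6 and 14 genes were not matched. The fit was also run on simulated reads with the same dispersion for every gene and no shift in cell makeup between libraries. That run therefore does not check the fit under the library differences seen here. Other pseudocounts, filters, scalings, trend removals (splines with 5 degrees of freedom; GC known for 97.9% of tested genes), the replicate number as a block and leaving out each library were also run. Python 3.11.15, pandas 2.3.3, numpy 2.4.6 and matplotlib 3.10.9 were used for tables and plots. Splicing was not analysed here, since the table lists genes.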

Additional observations from a re-analysis of the deposited data

How the results depend on the processing

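No axonemal gene and none of the other motile cilia genes passed in any of the 18 other settings, each of which gave 0; the lowest adjusted p of the axonemal genes ran from 0.200 to 0.840 (limma), with 3 to 5 at an unadjusted p under 0.05. Over all genes 2 were called in the main fit, 1 on the TPM scale, with the length trend removed, by voom, at a mean FPKM of at least 5, with protein-coding genes alone and with pseudocounts of 0.1 and 0.5, 3 with length and GC trends removed, 0 with no filter, and 0 to 0 when each library was left out in turn. With the replicate number as a block 0 genes were called, so no axonemal gene passed. Whether the numbers pair the samples is not known. Over all genes tested, deviations of same-numbered libraries correlated at 0.09, -0.33 and 0.39. Those of differently numbered WT and cKO libraries ran from -0.45 to 0.35, a like range. Averaged over the 78 genes, the deviation of log2(FPKM + 1) was 0.08, -0.02 and -0.10 in WT replicates 1 to 3. In cKO replicates 1 to 3 it was 0.07, 0.02 and -0.06, which is the same order. The median axonemal difference of -0.01 became 0.15 by voom and 0.13 at a mean FPKM of at least 5, where more and fewer genes were tested; it ran from -0.06 to 0.07 when each library was left out, and was positive in 10 settings and negative in 8. Rsph3a stayed between 0.57 and 0.82, Cfap97 between 0.21 and 0.49, Cfap418 between 0.31 and 0.52 and Cfap298 between -0.78 and -0.42; Cfap300 ran from 0.19 to 0.70, Dnal4 from -0.48 to -0.08, Cfap410 from -0.33 to -0.12 and Dnaaf1 from -0.38 to -0.03. None of these 8 changed sign. Of the 78 genes 24 had a mean of at least 1 FPKM, 66 at least 0.1, 39 at least 0.5 and 13 at least 5. Median-of-ratios scaling gave factors of 1, so it equals the main fit and is no separate check. The 54 of 78 genes below 1 FPKM were outside the main test, and each group held 3 libraries.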
